A study of Homo sapiens with 6 samples.

Results

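The subject is a set of 10 interferon-stimulated genes and interferon transcription factors in LX2 cells, an established human hepatic stellate cell line. They are STAT2, IRF9, IRF1, IRF7, XAF1, BST2, EPSTI1, PARP9, GBP2 and GBP1P1. They are the rows of the authors' deposited table that carry these names, 10 of 453 listed features. Of the 6 libraries, 3 came from LX2 cells given recombinant GDF15 protein, a secreted stress hormone related to TGF-beta, at 1 ug/ml for 24 h, and 3 from LX2 cells left untreated. The design text asks what GDF15 does to gene expression in hepatic stellate cells. Whether libraries of 1 group are separate cultures is not stated in the labels, and a p-value then measures only the spread between these libraries. The labels give the cell type as epithelial, and the design text as stellate. None of the 13 stellate and 6 epithelial markers has a row in the table, so the identity of the cells was not analysed here.

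Interferons bind cell surface receptors whose kinases phosphorylate STAT proteins. Type I interferon assembles a complex called ISGF3, which contains STAT2 and IRF9 and binds the interferon-stimulated response element (ISRE) in the promoters of its targets. Interferon-gamma acts through the gamma-activated sequence (GAS) in the promoters of its targets, and one of them is IRF1. In the liver, stellate cells are the main producers of scar matrix, and interferons are known as antiviral signals there.

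All 10 genes were higher in the GDF15 group by the group means, and no difference passed a test across many genes. The authors' deposited table gives an adjusted p of 0.911 for each of the 10, as for every other feature, so 0 of 10 and 0% of all 453 features passed an adjusted p of 0.05. Their unadjusted p-values in the authors' deposited table ran from 0.00312 for IRF9 to 0.0476 for BST2, the value closest to the limit of 0.05. That limit was met by 100% of the listed features, because the table is selected on it, and features outside it were not analysed here. The 10 genes were picked for this contrast, so their differences between the groups are a description and were not tested. In bulk RNA, more RNA per cell and more cells that express a gene cannot be told apart.

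A single library held most of the difference. GDF15 replicate 1 had the highest value of all 6 libraries for 10 of the 10 genes, against 39.7% of all listed features and 65.7% of the 274 features listed as higher. The median of the 10 genes, as log2 of the value over the untreated mean, was 1.71 in GDF15 replicate 1, 0.26 in GDF15 replicate 2 and 0.21 in GDF15 replicate 3. For the 274 features listed as higher the same medians were 0.95, 0.46 and 0.46. The median of the 10 genes was thus above that of the listed-higher features in replicate 1 and below it in replicates 2 and 3, with STAT2 an exception in replicate 1 and IRF9, XAF1 and GBP1P1 in replicates 2 and 3. Values below are normalized counts, the authors' values after division by 1 factor per library, given in the order of replicates 1, 2 and 3.

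**Figure D1:**
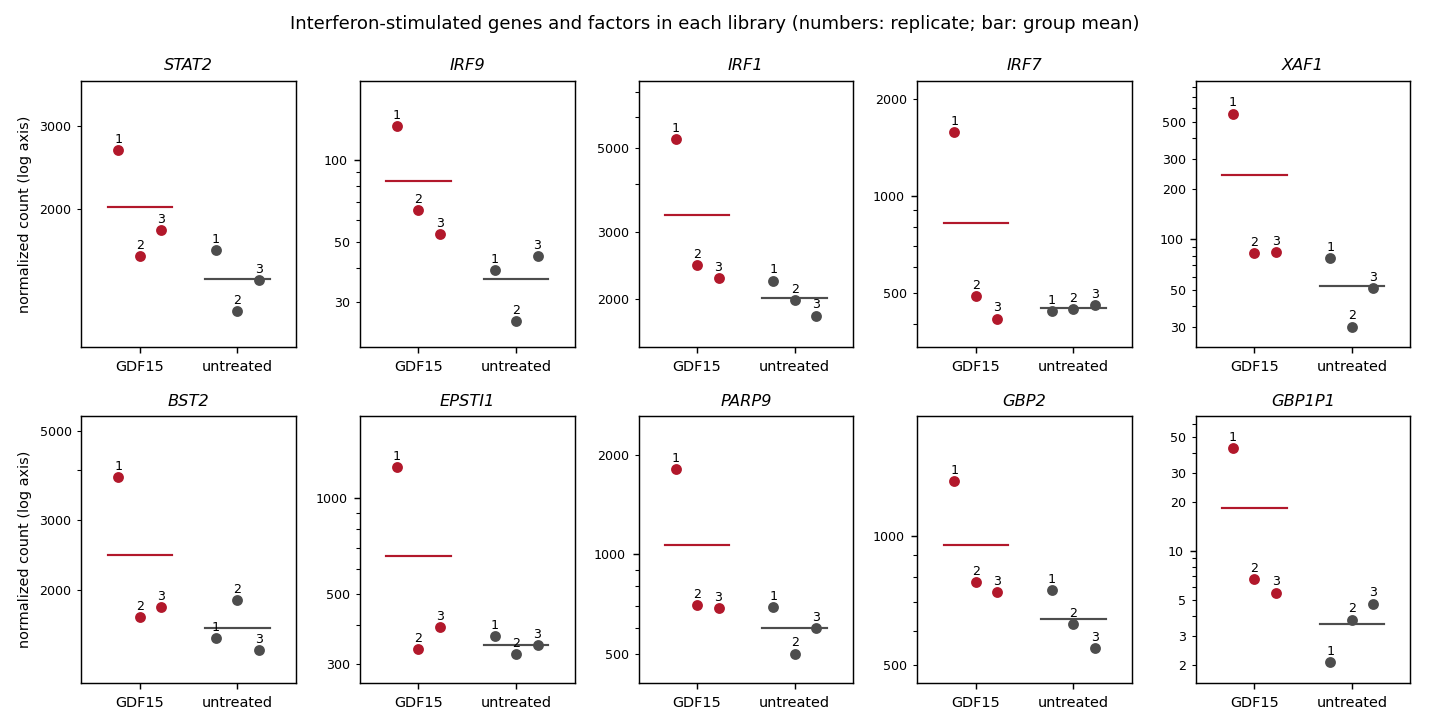
Normalized counts on log axes for the 10 genes, one panel a gene, with GDF15 libraries in red on the left and untreated libraries in grey on the right (points are single libraries numbered by replicate, bars are group means, n = 3 each). GDF15 replicate 1 is the top point of every panel, and the other GDF15 libraries lie near or within the untreated range in most panels.

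Among the transcription factors, the STAT2 gene encodes the STAT that is particular to ISGF3 within this pathway. STAT2 (ENSG00000170581, GRCh38 chromosome 12, 56341597 to 56360155, minus strand) had 2663, 1585 and 1803 normalized counts in GDF15 libraries, against 1631, 1211 and 1409 in untreated libraries. The groups overlapped, since GDF15 replicate 2 lay below untreated replicate 1. STAT2 averaged 2017 ± 570 normalized counts with GDF15 and 1417 ± 210.0 untreated (SD, n = 3 each), a 1.42-fold difference and the smallest of the 10.

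IRF9 supplies the main DNA contacts of ISGF3. IRF9 (ENSG00000213928, chromosome 14, 24161053 to 24166565, plus strand) had 132, 65.2 and 53.2 normalized counts in GDF15 libraries, against 39.4, 25.6 and 44.3 in untreated libraries. IRF9 averaged 83.6 ± 42.7 normalized counts with GDF15 and 36.4 ± 9.72 untreated (SD, n = 3 each). All GDF15 libraries were above all untreated ones, with GDF15 replicate 3 closest to the untreated range. The ratio of group means came to 2.29 in the full data and to 1.62 once GDF15 replicate 1 was left out. In GENCODE release 29 IRF9 lies wholly within the same-strand protein-coding gene AL136295.5, so the counting could have divided or dropped reads of IRF9.

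IRF1 is an early target of interferon-gamma and of NF-kB, and activates genes of antigen presentation. IRF1 (ENSG00000125347, chromosome 5, 132481609 to 132490798, minus strand) had 5255, 2449 and 2261 normalized counts in GDF15 libraries, against 2230, 1978 and 1803 in untreated libraries. IRF1 averaged 3322 ± 1677 normalized counts with GDF15 and 2004 ± 215 untreated (SD, n = 3 each). The groups did not overlap, but GDF15 replicate 3 and untreated replicate 1 were close to each other. Without GDF15 replicate 1 the ratio of means was 1.18, against 1.66 with all libraries. IRF1 is overlapped on the opposite strand by C5orf56 and AC116366.3, and the use of strand in counting is not given in the sources used here.

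IRF7 is the factor that amplifies the production of type I interferon, and is itself induced by ISGF3. IRF7 (ENSG00000185507, chromosome 11, 612553 to 615999, minus strand) had 1572, 488 and 416 normalized counts in GDF15 libraries, against 439, 445 and 458 in untreated libraries. IRF7 averaged 825 ± 648 normalized counts with GDF15 and 447 ± 10.1 untreated (SD, n = 3 each). The untreated libraries spanned a ratio of highest to lowest of only 1.05, the narrowest of the 10 genes, and GDF15 replicate 3 lay below all of them. Its ratio of group means was 1.84 over all libraries and 1.01 when GDF15 replicate 1 was left out.

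Among the effectors, XAF1 encodes an interferon-induced protein that antagonises the apoptosis inhibitor XIAP. XAF1 (ENSG00000132530, chromosome 17, 6755447 to 6775647, plus strand) had 559, 83.1 and 84.2 normalized counts in GDF15 libraries, against 77.8, 30.3 and 51.5 in untreated libraries. XAF1 averaged 242 ± 274 normalized counts with GDF15 and 53.2 ± 23.8 untreated (SD, n = 3 each). The groups did not overlap, although GDF15 replicates 2 and 3 were only slightly above untreated replicate 1. XAF1 was 4.55-fold higher by the means with all libraries and 1.57-fold higher without GDF15 replicate 1, and its untreated libraries had the widest spread of the 10 genes, 2.56-fold.

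BST2 encodes tetherin, a membrane protein that holds budding enveloped viruses on the cell surface. BST2 (ENSG00000130303, chromosome 19, 17402939 to 17405648, minus strand) had 3841, 1712 and 1816 normalized counts in GDF15 libraries, against 1517, 1885 and 1416 in untreated libraries. BST2 averaged 2456 ± 1200.3 normalized counts with GDF15 and 1606 ± 247 untreated (SD, n = 3 each). GDF15 replicates 2 and 3 both lay below untreated replicate 2. Its ratio of means came to 1.53 in the full data and to 1.10 once GDF15 replicate 1 was left out.

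EPSTI1 is an interferon-responsive gene first described in breast cancer epithelium co-cultured with stroma. EPSTI1 (ENSG00000133106, chromosome 13, 42886388 to 42992271, minus strand) had 1254, 335 and 393 normalized counts in GDF15 libraries, against 369, 323 and 344 in untreated libraries. EPSTI1 averaged 661 ± 514 normalized counts with GDF15 and 346 ± 23.0 untreated (SD, n = 3 each). Outside GDF15 replicate 1 the groups interleaved. The ratio of means was 1.91 over all libraries and 1.05 when GDF15 replicate 1 was left out.

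PARP9 acts with the ubiquitin ligase DTX3L, whose gene shares its promoter region on the opposite strand. PARP9 (ENSG00000138496, chromosome 3, 122527924 to 122564577, minus strand) had 1811, 704 and 688 normalized counts in GDF15 libraries, against 695, 502 and 599 in untreated libraries. PARP9 averaged 1068 ± 644 normalized counts with GDF15 and 599 ± 96.2 untreated (SD, n = 3 each). GDF15 replicate 3 was just below untreated replicate 1, so the groups overlapped. Its ratio of means came to 1.78 in the full data and to 1.16 once GDF15 replicate 1 was left out. The genes PARP9 and DTX3L overlap by 340 bases, and DTX3L has no row in the table.

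GBP2 encodes a guanylate-binding protein, a GTPase of cell-autonomous defence that interferon-gamma induces strongly. GBP2 (ENSG00000162645, chromosome 1, 89106132 to 89150456, minus strand) had 1341, 779 and 738 normalized counts in GDF15 libraries, against 745, 624 and 546 in untreated libraries. GBP2 averaged 952 ± 337 normalized counts with GDF15 and 638 ± 100.4 untreated (SD, n = 3 each). GDF15 replicate 3 lay just below untreated replicate 1. The ratio of means was 1.49 over all libraries and 1.19 when GDF15 replicate 1 was left out. GBP2 overlaps the same-strand gene GBP7 and belongs to a cluster of similar genes, so some of its reads could be shared.

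GBP1P1, a transcribed pseudogene of the same gene family, was near the lower limit of detection in 5 of the 6 libraries. GBP1P1 (ENSG00000225492, chromosome 1, 89407679 to 89426243, plus strand) had 42.4, 6.74 and 5.54 normalized counts in GDF15 libraries, against 2.07, 3.79 and 4.75 in untreated libraries. GBP1P1 averaged 18.2 ± 20.9 normalized counts with GDF15 and 3.54 ± 1.36 untreated (SD, n = 3 each). Its groups did not overlap in normalized counts, but the gap between GDF15 replicate 3 and untreated replicate 3 was smaller than 1 normalized count. In whole steps, the unit of which all values of a library are multiples, GDF15 libraries had 41, 6 and 5. The untreated libraries had 2, 4 and 6 steps, so before division by the library factors the groups overlapped. GBP1P1 had the largest ratio of means of the 10 genes, 5.15 with all libraries, and 1.74 without GDF15 replicate 1. Reads of GBP1P1 may come from its protein-coding relatives or be assigned to them.

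The gene with the largest ratio thus also had the fewest normalized counts. In all, groups did not overlap for 4 of the 10 genes, IRF9, IRF1, XAF1 and GBP1P1, against 37.3% of all listed features and 61.7% of the 274 listed as higher. For GBP1P1 the lack of overlap rested on the library factors. GDF15 replicate 1 lay above all untreated libraries for 10 of the 10 genes, GDF15 replicate 2 for 7 and GDF15 replicate 3 for 6. Each of these libraries did so for at least 37.3% of all listed features and 61.7% of those listed as higher, the shares without overlap. For GDF15 replicate 1 the shares are at least 39.7% and 65.7%, those with their highest value in it. The full shares were not counted, so the counts of 10, 7 and 6 are not read as particular to the 10 genes. Within the GDF15 group the 10 genes spread over a median ratio of highest to lowest of 2.56, against 1.36 within the untreated group. The same medians were 1.61 and 1.55 for the features listed as higher, and 1.39 and 1.57 for all listed features. GDF15 replicates 2 and 3 differed from each other by a median ratio of 1.11, near the 1.13 of the features listed as higher and the 1.12 of all listed features. The wide spread of the GDF15 group was therefore that of replicate 1 against the other 2.

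**Figure D2:**
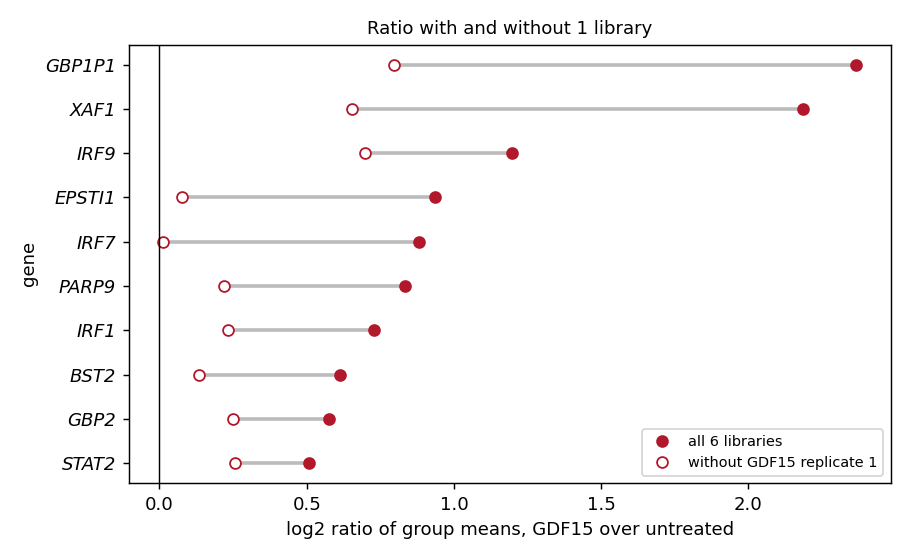
Log2 ratio of group means, GDF15 over untreated, for each of the 10 genes, with all 6 libraries (filled points) and without GDF15 replicate 1 (open points). All 10 points move towards 0 without that library, and those of IRF7 and EPSTI1 reach 0.01 and 0.08.

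Over the 10 genes the median log2 ratio of GDF15 to untreated means was 0.86 in the full data and 0.24 once GDF15 replicate 1 was left out. Over the 274 features listed as higher, which include the 10, it was 0.70 in the full data and 0.48 once that library was left out. The 3 genes with the fewest counts kept the largest ratios without GDF15 replicate 1, with log2 ratios of 0.80 for GBP1P1, 0.70 for IRF9 and 0.65 for XAF1. Without both GDF15 replicate 1 and untreated replicate 2, a choice made after seeing the data, the log2 ratio was 0.85 for GBP1P1, 0.50 for IRF9 and 0.37 for XAF1, and 0.01 for IRF7.

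Against the other 5 libraries, GDF15 replicate 1 stood at different heights for different genes. Its value over the median of the other 5 libraries was 8.93 for GBP1P1, 7.18 for XAF1, 3.64 for EPSTI1 and 3.53 for IRF7. The ratio was 2.99 for IRF9, 2.63 for PARP9, 2.36 for IRF1 and 2.24 for BST2, and it was lowest for GBP2 at 1.82 and STAT2 at 1.68. A ratio above 2 was thus found for 8 of the 10 genes, against 18.8% of all listed features and 30.7% of those listed as higher. The median of this ratio was 2.81 for the 10 genes, 1.56 for the features listed as higher and 1.19 for all listed features. A high replicate 1 was not particular to interferon genes. It was the highest library for 7 of 7 listed NF-kB target, cytokine and chemokine genes. The same held for 4 of 5 listed MHC class I and II presentation genes. Median log2 ratios of means of these 2 lists were 1.38 and 0.68 with all libraries, and 0.53 and 0.30 without GDF15 replicate 1.

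**Figure D3:**
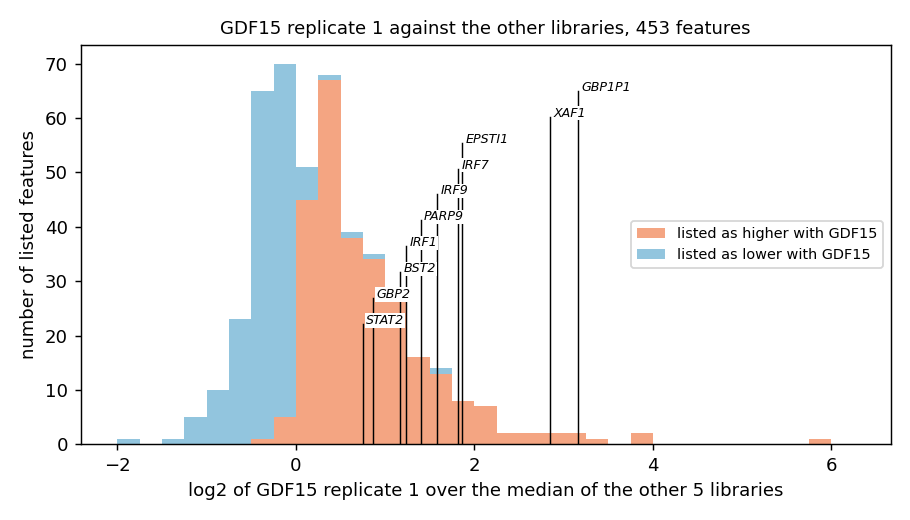
Histogram of the log2 ratio of GDF15 replicate 1 to the median of the other 5 libraries for the 453 listed features (vertical axis, number of features; orange, listed as higher with GDF15; blue, listed as lower), with the 10 genes marked by lines. The 10 lines lie between log2 values of a 1.68-fold and an 8.93-fold ratio, and 8 of them are beyond 2-fold.

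Measures of the whole libraries that move with replicate 1 are few in a table of selected features. The listed features summed to 470046 normalized counts in GDF15 replicate 1 and to between 322718 and 326126 in the other GDF15 libraries, against between 279332 and 317726 in untreated libraries. In the authors' scaling 1 step of the column of GDF15 replicate 1 was worth 1.03 normalized counts, and the 6 libraries ranged from 0.792 to 1.12. The 1 ERCC spike-in RNA in the table had 19.7, 18.0 and 13.3 normalized counts in GDF15 libraries, against 29.03, 38.9 and 26.9 in untreated libraries. Of 43 markers of leukocytes, hepatocytes, endothelial, epithelial, melanocytic and plasmacytoid dendritic cells, 0 had a row, so their levels in GDF15 replicate 1 were not analysed here. The part of these measures in the difference was not tested.

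Levels can be compared between genes as normalized counts per kb of annotated exons, a scale on which BST2 was the most abundant of the 10. In untreated cells BST2 had 1435 ± 221 normalized counts per kb (SD, n = 3), and IRF1 followed with 257 ± 27.5. STAT2 came next at 232 ± 34.4, and its libraries overlapped those of IRF1. IRF7 had 170.3 ± 3.84 and GBP2 had 102 ± 16.0 normalized counts per kb, each below the range of the gene before it. EPSTI1 at 70.2 ± 4.67 and PARP9 at 67.0 ± 10.8 could not be told apart by their ranges. The same held for IRF9 at 9.61 ± 2.56 and XAF1 at 8.04 ± 3.59, and GBP1P1 was last at 1.504 ± 0.577. In the GDF15 group the order of the means was the same except that XAF1, at 36.6 ± 41.5 normalized counts per kb, stood above IRF9, at 22.0 ± 11.3. This came from GDF15 replicate 1 alone, with 84.4 for XAF1 and 34.9 for IRF9. In GDF15 replicates 2 and 3 IRF9, at 17.2 and 14.0, was above XAF1, at 12.6 and 12.7. The exons of all annotated transcripts enter the length, so a gene with many unused exons appears lower on this scale.

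The promoters of these genes were read for the 2 elements named above, because the genes were high together in 1 library. RefSeq promoter windows on GRCh38.p14, from 250 bases before to 50 after a start site, were at hand for 7 of the 10 genes, with a pair of windows each for XAF1 and PARP9. ISRE was searched as GAAANNGAAA and GAS as TTCNNNGAA, on both strands. ISRE was found for 3 of 7 genes, BST2, EPSTI1 and PARP9, and in 3.57% of all 35116 windows. GAS was found for 4 of 7 genes, IRF1, IRF9, BST2 and EPSTI1, and in 7.66% of all windows. Of the 177 other listed-higher genes with a window 5.65% held ISRE, and of the 123 listed-lower genes 4.88%, against 4.38% of all genes with a window. For GAS the same shares of genes were 10.7%, 8.94% and 9.38%. No match of either pattern was found in the windows of STAT2 and XAF1. The 10 genes were chosen for being known interferon targets, so the shares among them describe that choice and carry no information on GDF15. The stretches below show each gene's own strand, 5′ to 3′, with matches of either pattern in capitals.

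BST2, chr19:17405743-17405772, minus strand: cctcctTTCTGGGAAACTGAAACTGAAAac
EPSTI1, chr13:42992272-42992361, minus strand: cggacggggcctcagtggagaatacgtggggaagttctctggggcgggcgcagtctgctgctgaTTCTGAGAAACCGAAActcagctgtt
PARP9, chr3:122564322-122564351, minus strand: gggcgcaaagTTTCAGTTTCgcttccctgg
IRF1, chr5:132490854-132490933, minus strand: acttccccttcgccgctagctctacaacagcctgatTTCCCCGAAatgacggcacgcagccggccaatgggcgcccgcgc
IRF9, chr14:24161192-24161221, plus strand: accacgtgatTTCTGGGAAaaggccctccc

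In BST2 a GAS match runs into a pair of ISRE matches that share their middle letters, the first of them starting 130 bases before the RefSeq start, and a second GAS match, not shown, starts 58 bases before it. In EPSTI1 the GAS and ISRE matches overlap in the same order, the ISRE starting 50 bases before the start. PARP9 carries ISRE on the opposite strand, 41 bases before the start. IRF1 and IRF9 hold GAS without ISRE, starting 124 and 63 bases before the start. These distances are from RefSeq starts, and GENCODE release 29 places longer genes over some of the stretches. The stretch of PARP9 lies within PARP9 itself and DTX3L, and that of IRF9 within IRF9 itself and AL136295.5. On the opposite strand, MVB12A and BISPR span the stretch of BST2, and AC116366.3 that of IRF1. A match is a description of the letters and not a bound site, and the lack of one covers only these exact patterns in these windows. Whether the patterns relate to the height of GDF15 replicate 1 was not tested. The genes with ISRE had ratios of GDF15 replicate 1 to the median of the other 5 libraries of 2.24 for BST2, 2.63 for PARP9 and 3.64 for EPSTI1. Of the genes with neither pattern in their windows, XAF1 had 7.18 and STAT2 had 1.68, the highest and the lowest of the 7 genes with a window.

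Other genes of the interferon pathway were in part listed and in part not. Of 152 further names in 7 lists, 17 had a row, 16 higher and 1 lower with GDF15, in a table where 60.5% of features were higher. No ligand gene of 10, no receptor or kinase gene of 9, and none of ISG15, MX1 or IFIT1 had a row, and such genes were not analysed here. GDF15 replicate 1 was the highest library for 14 of the 17, the exceptions being SECTM1, CIITA and IRF5. That library was also highest for 39.7% of all listed features and 65.7% of those listed as higher. The 17 had a median log2 ratio of 0.66 over all libraries and of 0.25 when GDF15 replicate 1 was left out. For the features listed as higher these medians were 0.70 and 0.48.

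Among regulators, DHX58, the RNA sensor LGP2, had 1429, 440 and 518 normalized counts in GDF15 libraries, against 421, 407 and 450 in untreated libraries. SOCS3, an inhibitor of JAK signalling, had 1359, 626 and 671 in GDF15 libraries, against 719, 449 and 523 normalized counts in untreated libraries. Both had a single high library and otherwise overlapping groups. UBA7, the activating enzyme for the ubiquitin-like protein ISG15, was spread more evenly, with 1354, 1077 and 1246 normalized counts in GDF15 libraries, against 982, 714 and 785 in untreated libraries, and no overlap.

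IRF5, a factor that induces inflammatory cytokines, was the 1 lower gene of the 17. IRF5 (ENSG00000128604) had 6.21, 10.1 and 5.54 normalized counts in GDF15 libraries, against 16.6, 15.2 and 22.2 in untreated libraries. Its groups did not overlap, and GDF15 replicate 1 was not apart from the other GDF15 libraries. Its log2 ratio was -1.30 in the full data and -1.20 once GDF15 replicate 1 was left out, at counts so low that single reads weigh in every value.

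The other effectors with a row were PML, IL15RA, SECTM1, PARP12, APOL3, APOL2 and OGFR, all listed as higher. Their ratios of means ran from 1.25 for OGFR to 1.67 for PML, the scaffold protein of nuclear bodies. The groups did not overlap for 5 of the 7, against 37.3% of all listed features and 61.7% of those listed as higher. The count is near the latter share and is not read as particular to these genes. PARP12, an antiviral ADP-ribosyltransferase gene, had 1019, 544 and 614 normalized counts in GDF15 libraries, against 505, 484 and 490 in untreated libraries. Among genes that interferon-gamma induces, VCAM1, CD74, C1S, CIITA, C1R and NLRC5 had a row, all 6 listed as higher. C1S and C1R, complement proteases, had ratios of means of 1.83 and 1.73 with all libraries, and log2 ratios of only 0.07 and 0.09 without GDF15 replicate 1. CIITA, the class II transactivator, had 42.4, 57.3 and 42.1 normalized counts in GDF15 libraries, against 23.8, 19.0 and 34.0 in untreated libraries. CIITA thus differed from the 10 genes in having its highest value in GDF15 replicate 2.

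**Figure D4:**
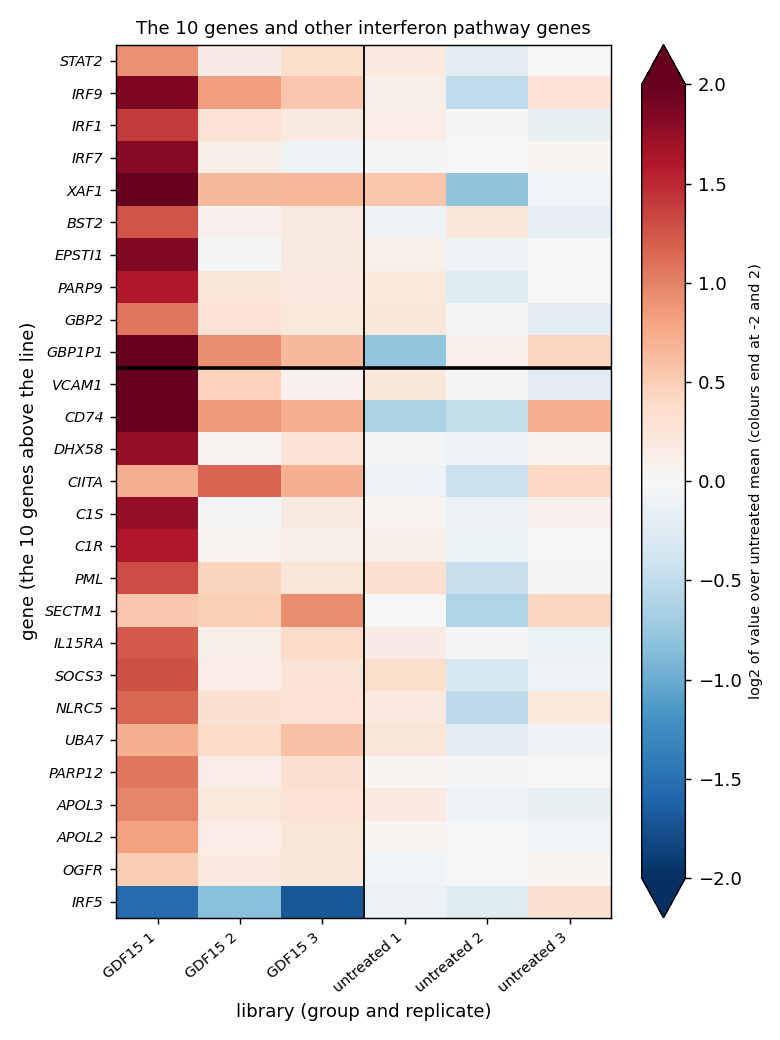
Log2 of each library's normalized count over the gene's untreated mean, for the 10 genes (above the line) and the 17 other interferon pathway genes with a row (below it), with GDF15 libraries in the left columns and untreated libraries in the right ones. The first column holds the highest value of all 10 genes and of 14 of the 17 others, as for 65.7% of the features listed as higher. IRF5, at -1.30 by the group means, is blue in the GDF15 columns.

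The features whose pattern was most like that of the 10 genes were P4HA2, C19orf66, TAPBP, NFKB2, C1QTNF1, ZC3H12A, EDNRB and TAP1. Likeness was Pearson's r over 6 libraries between log2(normalized count + 1) and the mean standardised profile of the 10 genes, and it ran from 0.995 for P4HA2 to 0.990 for TAP1 within these 8. Since 1 library stands apart, r is set mainly by that library, and 73 of the 443 other features had r above 0.9. P4HA2, a collagen prolyl hydroxylase gene, had 9493, 4404 and 4026 normalized counts in GDF15 libraries, against 4139, 3440 and 3558 in untreated libraries. C19orf66, an interferon-induced antiviral gene also called SHFL, had 1446, 713 and 760 normalized counts in GDF15 libraries, against 650, 551 and 602 in untreated libraries. Its groups did not overlap, and its r over the 5 libraries other than GDF15 replicate 1 was 0.961, the highest of the 8. Among the 8, TAPBP and TAP1 serve peptide loading of MHC class I, and NFKB2 is a subunit gene of NF-kB. TAP1 had 5308, 2208 and 2334 normalized counts in GDF15 libraries, against 2245, 1800 and 2112 in untreated libraries, with GDF15 replicate 2 below untreated replicate 1.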

How the data were processed

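Poly(A) RNA of 6 LX2 libraries, with ERCC spike-in RNA added to total RNA, was prepared with a NEBNext Ultra II kit, per the labels' protocols. The submitters' processing notes name DESeq2, featureCounts, STAR 2.5.2b, Subread 1.5.2, Trimmomatic 0.36 and the build GRCh38. The sources used here do not give the annotation or the strand setting. The authors deposited log2 fold changes of GDF15 over untreated, p-value columns, and 1 signal column per library, called normalized counts here. All values of a column were whole multiples of 1 step (within 0.001 of a step), as division by 1 factor per library gives. The table holds selected features, so full depth is unknown and no counting interval is given.

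Means, SDs and log2 ratios of means were computed with Python 3.11.15 and pandas 2.3.3. On log2(normalized count + 1), limma 3.58.1 (R 4.3.3) was fitted over the listed features only, after a test on simulated data. The features were selected on these same values, so limma tests nothing here and its counts stand with the alternatives. The simulated data had no selection of features and no outlying library, so that test does not cover the listed features. An exact permutation test of 3 against 3 libraries cannot go below p = 0.1, so none was run. Coordinates and exon lengths are from GENCODE release 29 (GRCh38), and promoter sequences from RefSeq (GRCh38.p14). Named were the 10 genes, every listed gene of the interferon lists, and the 8 features most like the 10. Genes and lists were chosen with earlier results of these data known. Alternatives were pseudocounts, group medians, a minimum mean of 20, a replicate block and leaving out libraries.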

Additional observations from a re-analysis of the deposited data

How the results depend on the processing

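The median log2 ratio of means over the 10 genes was 0.86, and ranged from 0.24 to 1.14 when single libraries were left out. It stayed positive under every alternative tried, but the listing nearly fixed this. Without GDF15 replicate 1, 272 of the 274 features listed as higher also had a ratio above 0. Over those 274 features the median ranged from 0.48 to 0.85 with single libraries left out. A further alternative, chosen once the values were known, dropped both GDF15 replicate 1 and untreated replicate 2. It gave a median of 0.23 for the 10 genes and 0.35 for the 274 features. Limma refits the values that put the features in the table, so its calls (unadjusted p under 0.05, higher) only describe them. It called 1 of the 10 genes and 104 of all 453 features. With the replicate block these counts were 3 and 161, and with single libraries left out they ran from 0 to 3 and from 55 to 126. For single genes, 20 of 110 values under alternatives moved by more than the spread between replicates, and none changed sign. That spread includes GDF15 replicate 1, so the fall of BST2 from 0.61 to 0.14 without that library was within it. All 20 moves but that of GBP1P1 at a pseudocount of 5 came with group medians or without GDF15 replicate 1. The sign was nearly fixed by the listing, as given above. The labels do not say what a replicate number shares. Deviations of equal numbers correlated at 0.11, 0.22 and -0.05 for numbers 1, 2 and 3, and those of unequal numbers at -0.19 to 0.08. These correlations do not settle whether equal numbers mark pairs, and the block is given only as an alternative. With 3 libraries a group and features listed for their difference, the values describe these libraries.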
